A study of Mus musculus with 5 samples.

Results

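Versican, aggrecan and the genes that make, bind and degrade hyaluronan were followed in RNA of mouse mitral valve leaflets. The set holds 10 genes, taken by symbol from a deposited table of 24062 genes with raw counts in 5 libraries. They are Vcan and Acan (core proteins), Hapln1 (link protein), Has1, Has2 and Has3 (synthases), Hyal1 and Hyal2 (hyaluronidases), Cd44 (receptor) and Tnfaip6 (a hyaluronan cross-linker). The genes were taken by name and not by a cut on measured values, but earlier results of these data were known when the set was chosen.

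The study asked how knockout of Ift88, which encodes a cilium transport protein, changes the leaflet transcriptome. Groups follow the library titles, with 2 libraries titled WT and 3 titled KO. The genotype field gives NfatC1Cre(+) with Ift88f/f for the WT libraries and NfatC1Cre(+) with Ift88+/+ for the KO libraries, so the allele names run against the titles. All 5 libraries therefore carry the Cre driver, which takes its expression from Nfatc1, a gene of the endocardium, and cells outside that lineage keep the intact gene. The sources used here give no age or strain and do not say whether leaflets were pooled, and no label ties the libraries to different animals. The p-values here therefore describe the spread among 5 libraries, which may be technical. Ift88 stood at 7.54 and 19.8 CPM in WT replicates 1 and 2 and at 3.0, 3.92 and 0.409 in KO replicates 1, 2 and 3. Every library titled KO thus lay below both titled WT, as for 11.1% of all tested genes, which goes with the titles rather than with the genotype field. Ift88 itself was not called, with a log2 fold change of -2.48 (SE 1.13, adjusted p = 0.81, edgeR quasi-likelihood test). In the authors' deposited table its adjusted p was 0.375.

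Hyaluronan is a long unbranched sugar polymer that synthases in the plasma membrane extrude straight into the matrix. Versican and aggrecan are large chondroitin sulphate proteoglycans that bind it at one end, and link protein locks that bond, so that the complex holds water and swells. In the heart this gel fills the cardiac jelly and the endocardial cushions from which the valves form, and in the mature mitral leaflet it makes up the soft middle layer, the spongiosa.

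Vcan and Hapln1 are neighbours on chromosome 13 (GENCODE M21, GRCm38). Vcan lies on the minus strand at chr13:89655312-89742509 and Hapln1 on the plus strand at chr13:89539796-89611652, tail to tail, with a gap of 43.7 kb and 0 coding genes between them. Hyal2 and Hyal1 are also neighbours, both on the plus strand of chromosome 9 and 4.1 kb apart. Promoter sequences from RefSeq (GRCm38.p6) matched 8 of the 10 members, all but Has2 and Has3. The 250 bases before the start are shown for Vcan and Hyal1, which stood higher in every KO library, for Acan, which had reads in KO libraries only, and for Hapln1, the neighbour of Vcan. They read 5′ to 3′ on the gene's strand and lie at chr13:89742513-89742762 (minus), chr7:79052976-79053225 (plus), chr9:107576700-107576949 (plus) and chr13:89540386-89540635 (plus). Capitals mark matches to the motifs searched.
Vcan: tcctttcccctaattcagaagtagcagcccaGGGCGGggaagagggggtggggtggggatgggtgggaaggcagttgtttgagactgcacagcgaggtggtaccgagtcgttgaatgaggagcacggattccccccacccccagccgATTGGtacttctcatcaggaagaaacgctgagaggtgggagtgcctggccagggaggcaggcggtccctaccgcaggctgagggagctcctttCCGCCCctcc
Acan: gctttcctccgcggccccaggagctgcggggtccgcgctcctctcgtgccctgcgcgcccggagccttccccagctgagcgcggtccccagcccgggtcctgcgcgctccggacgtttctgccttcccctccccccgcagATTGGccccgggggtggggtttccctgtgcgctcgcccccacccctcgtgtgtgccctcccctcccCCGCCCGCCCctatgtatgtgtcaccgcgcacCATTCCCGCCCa
Hyal1: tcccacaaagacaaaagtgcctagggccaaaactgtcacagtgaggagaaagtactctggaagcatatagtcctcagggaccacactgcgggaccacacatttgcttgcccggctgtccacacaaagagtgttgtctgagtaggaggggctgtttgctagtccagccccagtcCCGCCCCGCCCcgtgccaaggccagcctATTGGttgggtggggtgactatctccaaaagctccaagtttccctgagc
Hapln1: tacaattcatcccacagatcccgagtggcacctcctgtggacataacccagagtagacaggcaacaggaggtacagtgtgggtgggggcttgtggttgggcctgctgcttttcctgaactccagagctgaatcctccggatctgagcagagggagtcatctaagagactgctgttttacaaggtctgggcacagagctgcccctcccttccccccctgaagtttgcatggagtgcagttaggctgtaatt
The motifs, searched on both strands, were TATAAA for the basal TATA element, CCAAT for the box of that name, GGGCGG for the GC box, TGANTCA for AP-1, CTTTGAT for TCF/LEF factors, GGAATG for TEAD factors and ACAATGG for SOX factors. Vcan, Acan and Hyal1 each held CCAAT, which 33.8% of 32851 promoters of this length also hold, and GGGCGG, which 32.7% hold. In Vcan the CCAAT match began 103 bases before the start. Acan also held GGAATG (12.6% of promoters), and there GC boxes overlap each other and the GGAATG match. The Hapln1 window held none of these letters. It lies inside the GENCODE span of Hapln1 given above, so it precedes a RefSeq start and not the GENCODE gene start. The Vcan window lies outside the span of Vcan. G and C made up 62.4% of the Vcan window and 54.4% of that of Hapln1, against a median of 52.4% over all promoters.

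The libraries held between 23361414 and 53789026 counted reads, and levels are given as CPM, a gene's reads relative to all counted reads of its library after TMM scaling. The 2 WT libraries were far apart in the markers of the cells they contained. Summed over 11 cardiomyocyte markers, WT replicate 1 had 64911 CPM and WT replicate 2 had 105, while the KO libraries lay between 27216 and 36381. Summed over 10 endothelial and endocardial markers, WT replicate 1 had 288 CPM, WT replicate 2 had 2694, and the KO libraries 1783 to 2429. For the 10 interstitial fibroblast markers the sums were 2800 and 7797 in WT and 8039 to 11559 in KO. Of the 10, 6 were higher in every KO library, against 13.5% of all tested genes, while Lum, Pdgfra, Vim and Tcf21 did not separate the groups. A lower level in these bulk samples cannot be told apart as fewer cells of a type or less RNA per cell. How far these differences in content bear on the members was not tested, and values scaled to the markers are given below. The interstitial markers Dcn, Lum and Postn were read in every library of the labelled tissue, from 349 CPM upward, and of the chondrocyte markers Sox9 was read in every library and Matn1 in none.

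**Figure D1:**
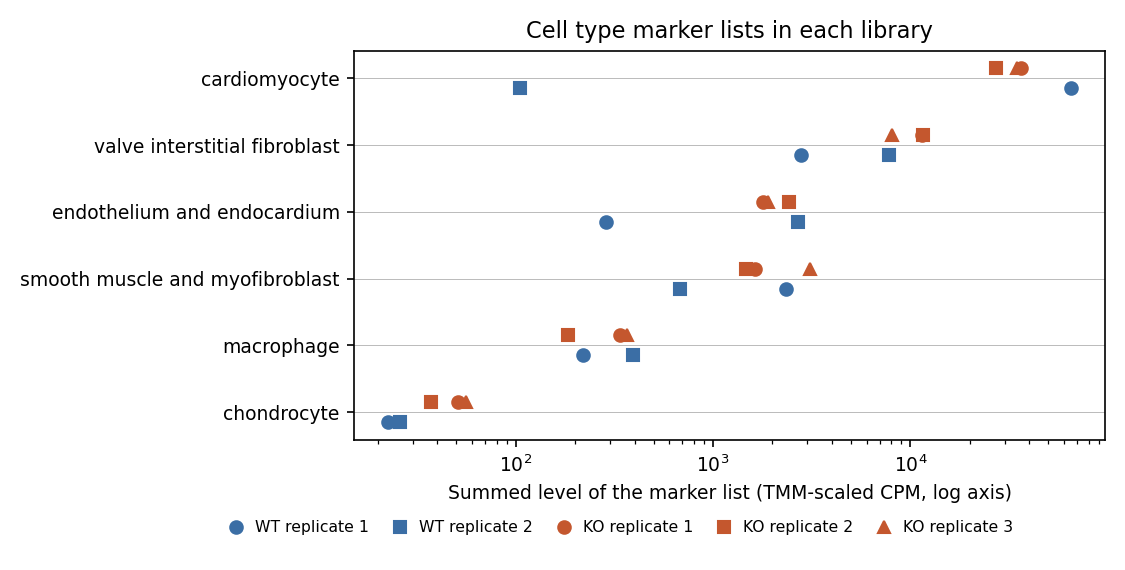
Summed level of 6 cell type marker lists per library (x axis, CPM after TMM scaling, log scale). Each symbol is 1 library, blue for WT and orange for KO, and its shape gives the replicate. WT replicate 2 stands at 105 CPM for cardiomyocyte markers against 27216 or more in the other 4 libraries, and WT replicate 1 is the lowest library for interstitial and endothelial markers.

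No member passed the test over all genes. The edgeR quasi-likelihood test, with Benjamini-Hochberg adjustment over 14244 genes, called 0 of them (0%) and 0 of the 10 members, although all 10 were tested. At an unadjusted p under 0.05 it gave 832 genes (5.84%), 651 higher in KO (4.57%) and 181 lower (1.27%), and 2 members, Vcan and Acan, were among the higher. All KO libraries exceeded the WT pair for 3 of the 10 members, Vcan, Acan and Hyal1, where 13.5% of all tested genes did so. Acan had no WT read and was tested through its KO reads alone, which fixed its direction, and its level in KO replicate 1 was at the detection floor. Of the 9 members with a WT read the count was 2, where 13.1% of all tested genes with a WT read did so. Every KO library lay below both WT libraries for 0 members (11.1% of all genes). For another 3 members, Hapln1, Has2 and Cd44, all KO libraries lay between the 2 WT libraries, as for 17.3% of all genes. The fold change was positive for 6 members and negative for 4 (positive for 49.4% of all genes). The median log2 fold change of the members was 0.14, against -0.01 over all genes tested. In 8 of the 10 members WT replicate 2 stood above WT replicate 1, against 49.9% of all genes.

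**Figure D2:**
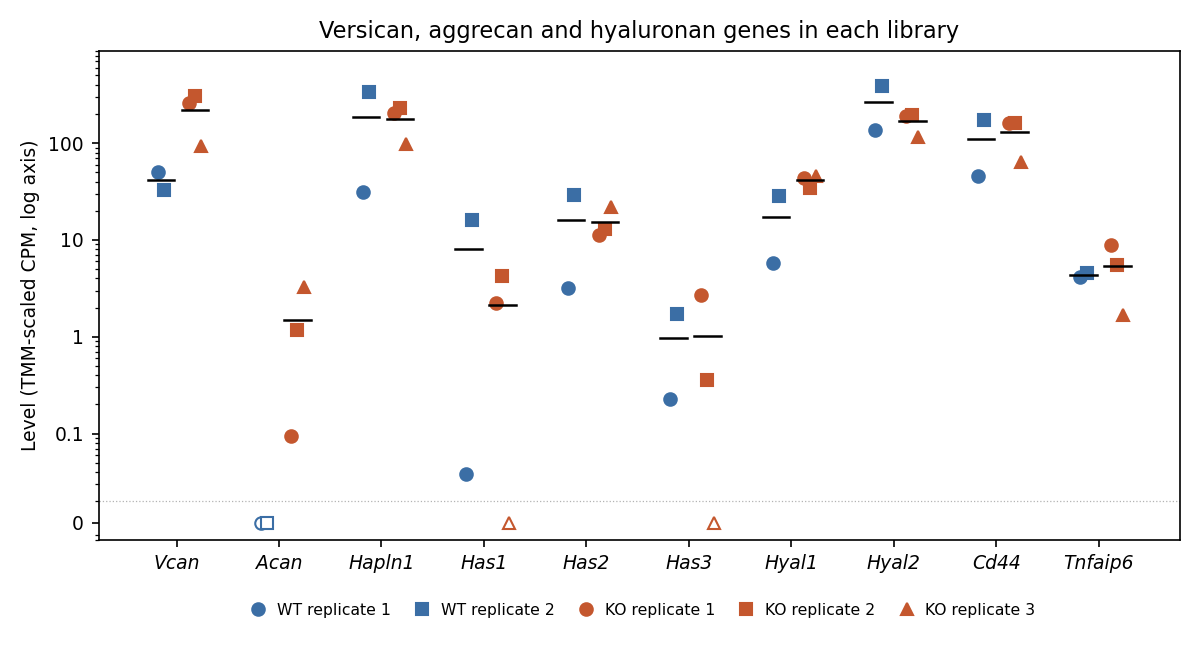
Level of the 10 genes per library (y axis, CPM after TMM scaling, log scale), with 0 drawn as an open symbol under the dotted line. Each symbol is 1 library, and a black line marks the mean of a group. For Vcan the KO libraries lie between 93.6 and 306, above both WT libraries, while for Hapln1 the WT libraries at 31.0 and 339.7 enclose all 3 KO libraries.

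Versican was higher in the KO libraries than in both WT libraries. Vcan stood at 50.1 and 32.5 CPM in WT replicates 1 and 2, and at 262, 306 and 93.6 in KO replicates 1, 2 and 3. KO replicate 3 was the lowest of its group, 3.26-fold below KO replicate 2, and still above both WT libraries. Group means were 41.3 ± 12.5 CPM (SD, n = 2) and 220.2 ± 112 (SD, n = 3). On the log2 scale the groups differed by 2.41 (SE 0.61), with an unadjusted p of 0.00729 and an adjusted p of 0.81 (edgeR quasi-likelihood test). In the authors' deposited table Vcan had a log2 fold change of 1.84 and an adjusted p of 0.0323, and it was the 1 member called there, where 1.36% of genes were called higher and 0.0699% lower. DESeq2 on the same counts gave 2.34 with an adjusted p of 0.017 (2.22% of genes called higher).

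The size of the Vcan difference varied with the setting. Leaving out each library in turn gave log2 fold changes between 2.11 and 2.78, or between 1.88 and 2.81 above the median of all genes. With each library's trend with transcript length removed it was 0.96, or 1.04 above that median, and the longest Vcan transcript, at 12427 nt, is the longest among the members. Scaled to the interstitial markers in place of TMM it was 0.85 (unadjusted p = 0.257, edgeR quasi-likelihood test). Scaled to the endothelial markers it was 0.19 (unadjusted p = 0.867, same test). These scalings moved the median of all genes to -1.38 and -1.87, and Vcan lay 2.23 and 2.06 above that median. Taking off the median removes the common shift that the scaling brought. Those distances therefore cannot show whether Vcan differs beyond the markers. Within a library the ratio of Vcan to Dcn reads (decorin, a fibroblast proteoglycan) was 0.0888 and 0.0323 in WT and 0.170, 0.273 and 0.0882 in KO. On that ratio KO replicate 3 did not lie above WT replicate 1. Against Pdgfra, a receptor of fibroblasts, the ratio was 1.63 and 0.0802 in the WT pair and 1.17, 1.66 and 0.402 in KO replicates 1, 2 and 3. There only KO replicate 2 exceeded WT replicate 1. Against Vim (vimentin) it was 0.0631 and 0.00946 in the WT pair and 0.105, 0.0899 and 0.0529 in KO, and KO replicate 3 again lay below WT replicate 1. So the groups overlap on all 3 ratios. Counts are per gene, so the splice forms of versican, which differ in their chondroitin sulphate regions, cannot be told apart.

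Aggrecan, the main proteoglycan of cartilage, was close to the limit of detection. Acan had 0 reads in both WT libraries, which allows up to 0.114 and 0.0520 CPM (3 counts in each library). It had 3, 50 and 79 reads in KO replicates 1, 2 and 3, or 0.0948, 1.18 and 3.23 CPM. The 3 reads of KO replicate 1 are themselves at that floor, so the difference rests on KO replicates 2 and 3. Against a floor of 3 counts over the WT group, Acan was at least 37.5-fold higher in KO. KO replicate 3 supplied 79 of the 132 reads, and without it the bound was 20.03-fold. The edgeR quasi-likelihood test gave an unadjusted p of 0.0433 and an adjusted p of 0.81. The gene passed the filter on low counts only through the KO libraries. Without KO replicate 2, or without KO replicate 3, it no longer passed that filter. The 8 chondrocyte markers, Acan among them, summed to 22.6 and 25.8 CPM for WT and to between 37.0 and 55.7 for KO, and their part in this result was not tested. Per kilobase of transcript Acan made up at most 5.52% of the versican and aggrecan signal (KO replicate 3).

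Link protein differed more between the 2 WT libraries than between the groups. Hapln1 stood at 31.0 and 339.7 CPM for WT, against 206, 233 and 97.4 for KO. WT replicate 2 was thus 10.95-fold above WT replicate 1, and the KO libraries lay between them. Group means were 185 ± 218 CPM (SD, n = 2) and 179 ± 71.9 (SD, n = 3), with a log2 fold change of -0.05 (SE 0.93, adjusted p = 0.998, edgeR quasi-likelihood test). Dropping WT replicate 2 gave 2.53 and dropping WT replicate 1 gave -0.96, so the direction depends on which WT library is kept.

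Vcan and its neighbour Hapln1 ran in parallel in 4 libraries and apart in WT replicate 2. The ratio of Vcan to Hapln1 reads was 1.62 in WT replicate 1 and 0.0957 in WT replicate 2. In KO it was 1.27, 1.31 and 0.961, so that 4 libraries held similar numbers of reads from both genes and WT replicate 2 held far more from Hapln1. The groups overlap on this ratio.

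Has2, the synthase that the embryonic heart needs to form cushions, was the most abundant synthase transcript. Has2 stood at 3.16 and 28.8 CPM for WT, against 11.2, 13 and 22.0 for KO. As with Hapln1, the WT libraries enclose the KO libraries. Group means were 16 ± 18.2 CPM (SD, n = 2) and 15.4 ± 5.78 (SD, n = 3), with a log2 fold change of -0.05 (SE 0.94, adjusted p = 0.997, edgeR quasi-likelihood test). Without WT replicate 2 it was 2.29, and without WT replicate 1 it was -0.94.

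Has1, another synthase, varied over the full range from absent to 16 CPM. It had 1 read in WT replicate 1 and 923 in WT replicate 2, or 0.0381 and 16 CPM. In KO it had 2.21, 4.20 and 0 CPM, and the 0 of KO replicate 3 allows up to 0.123. No direction can be read, since the log2 fold change of -1.90 (SE 2.40) became 5.67 without WT replicate 2. Has3, which makes shorter chains, stood at 0.228 and 1.73 CPM for WT, against 2.69, 0.354 and 0 for KO, with a log2 fold change of 0.04 (SE 2.46). KO replicate 1 was the highest library and KO replicate 3 had no read.

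Set per kilobase of the longest transcript, Has2 was the leading synthase in every library. It made up 93.8% and 58.6% of the 3 synthases in WT and 71.1%, 71.2% and 100% in KO. Has1 supplied 38.9% in WT replicate 2, 27.4% in KO replicate 2 and 16.7% in KO replicate 1, and 1.35% or less in the other libraries. Has3 supplied 12.2% in KO replicate 1 and at most 4.86% elsewhere. The share of Has2 averaged 76.2% ± 24.9 (SD, n = 2) in WT and 80.8% ± 16.7 (SD, n = 3) in KO, and the groups overlap (exact two-sided permutation p = 0.8). The 3 synthases together stood at 3.43 and 46.6 CPM for WT, against 16.1, 17.6 and 22.0 for KO (exact two-sided permutation p = 0.8, where 5 libraries allow no p below 0.2). Has2 shares 4.3% of its exon bases with the antisense RNA Has2os and Has3 shares 5.52% with Chtf8. The library kit does not mark strand, so reads there cannot be assigned to either gene.

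**Figure D3:**
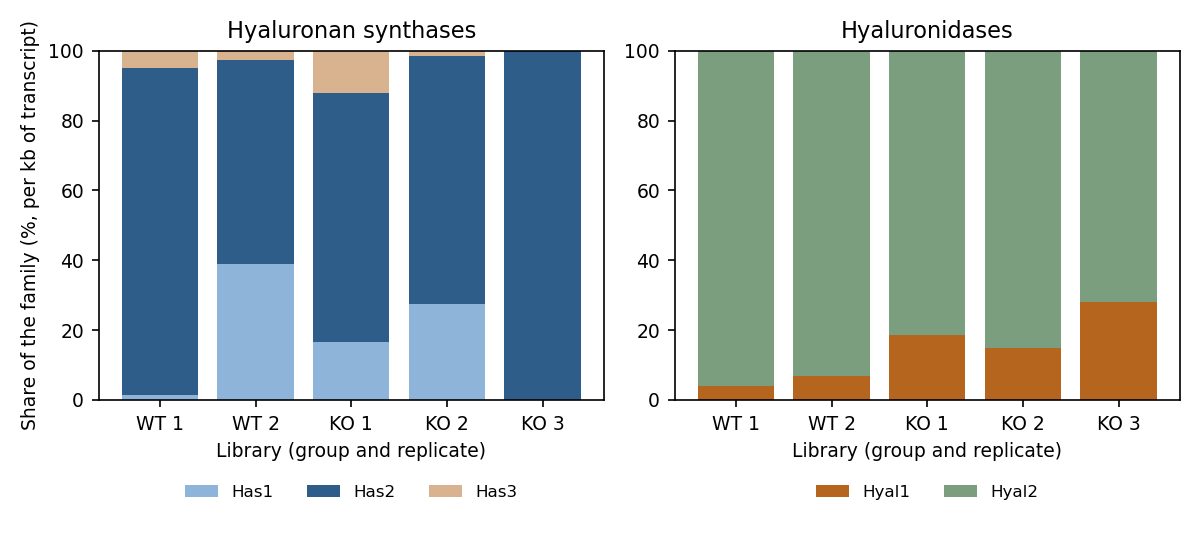
Share of each hyaluronan synthase (left) and of each hyaluronidase (right) in its family, as percent of CPM per kilobase of the longest transcript, in 1 bar per library. Has2 is the largest part of the synthases in all 5 bars, from 58.6% to 100%, and the Hyal1 part is 3.98% and 6.75% in WT and 14.7% to 27.9% in KO.

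Hyal2, a membrane-bound enzyme that cuts long hyaluronan chains outside the cell, was the most abundant member per kilobase in all 5 libraries. It stood at 136 and 390.2 CPM for WT, against 189, 197 and 117 for KO. WT replicate 2 was the highest library and KO replicate 3 the lowest. The log2 fold change was -0.65 (SE 0.52, adjusted p = 0.892, edgeR quasi-likelihood test). Dropping WT replicate 2 turned it to 0.30, and dropping WT replicate 1 gave -1.25.

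Hyal1, the lysosomal enzyme that degrades the fragments further, was higher in every KO library. It stood at 5.75 and 28.7 CPM for WT, against 44.1, 34.6 and 46.1 for KO. The KO libraries lay within 1.33-fold of each other, the tightest spread in KO among the members, while the WT libraries were 4.99-fold apart. Group means were 17.2 ± 16.2 CPM (SD, n = 2) and 41.6 ± 6.15 (SD, n = 3). On the log2 scale the difference came to 1.27 (SE 0.72), with an unadjusted p of 0.128 and an adjusted p of 0.841 (edgeR quasi-likelihood test). Dropping WT replicate 1 gave 0.51 and dropping WT replicate 2 gave 2.85. Scaled to the interstitial markers it was 0.24 (unadjusted p = 0.704), and scaled to the endothelial markers also 0.24 (unadjusted p = 0.827, edgeR quasi-likelihood test). It then lay 1.62 and 2.11 above the median of all genes. Taking off that median removes the common shift of the scaling, so these distances cannot show a difference beyond the markers.

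The balance of the 2 hyaluronidases also separated the groups, on a ratio that no library scaling can change. Per kilobase, Hyal1 was 3.98% and 6.75% of Hyal1 and Hyal2 together in WT and 18.7%, 14.7% and 27.9% in KO. Means were 5.37% ± 1.96 (SD, n = 2) and 20.5% ± 6.77 (SD, n = 3), and the exact two-sided permutation p was 0.2, the smallest these 5 libraries allow. This share was examined after the levels had been seen. Hyal1 shares 50.8% of its annotated exon bases with Naa80 on the same strand, listed in the table under its older symbol Nat6, so its reads are uncertain to that extent. It also shares 4.21% with Hyal3 on the same strand. Nat6 stood at 18.5 and 20.8 CPM for WT, against 17.5, 15.3 and 10.3 for KO. Every KO library thus lay below both WT libraries, as for 11.1% of all tested genes, where Hyal1 was above. Since the counting mode is not given, this opposite direction does not show how shared reads were assigned. Together, Hyal1 and Hyal2 summed to 142 and 419 CPM in WT and to 233, 231 and 163 in KO, all between the WT libraries (exact two-sided permutation p = 0.8).

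Cd44, the main cell surface receptor for hyaluronan, stood at 45.9 and 173 CPM for WT, against 161, 162 and 63.7 for KO. The 3 KO libraries again fell inside the range of the WT pair. Group means were 110 ± 90.1 CPM (SD, n = 2) and 129 ± 56.6 (SD, n = 3), a log2 fold change of 0.24 (SE 0.68, adjusted p = 0.984, edgeR quasi-likelihood test). Dropping WT replicate 2 gave 1.49, and dropping WT replicate 1 turned it to -0.46.

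Tnfaip6 encodes TSG-6, a secreted protein that moves heavy chains of inter-alpha-inhibitor onto hyaluronan. It was the member on which the WT libraries were closest, at 4.11 and 4.51 CPM, a ratio of 1.10. The KO libraries stood at 8.88, 5.45 and 1.68, so KO replicates 1 and 2 lay above both WT libraries and KO replicate 3 below both. The log2 fold change was 0.31 (SE 1.07, adjusted p = 0.986, edgeR quasi-likelihood test). It turned to -0.31 without KO replicate 1.

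Ordered by mean CPM per kilobase over the 5 libraries, the members ran from Hyal2 (69.4) through Hapln1 (31.8), Cd44 (21.6), Vcan (12), Hyal1 (10.6), Has2 (3.70), Tnfaip6 (2.88) and Has1 (1.27) to Has3 (0.169) and Acan (0.123). Hyal2 was above Hapln1 in 5 of 5 libraries and Hapln1 above Cd44 in 4 of 5. Cd44 was above Vcan in 5 of 5. Vcan and Hyal1 did not differ beyond their spread, with Vcan above in 3 of 5, and neither did Has2 and Tnfaip6, with Has2 above in 2 of 5. In WT replicate 1 the member after Hyal2 was Cd44, and in the other 4 libraries it was Hapln1. Versican, with its long transcript, thus ranks lower per kilobase than its read counts would place it.

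The other genes of the pathway, in 10 lists, had 0 genes called by the edgeR quasi-likelihood test. Their counts are read against all tested genes, of which 49.4% had a positive fold change, 13.5% stood higher in every KO library and 11.1% lower. The nearest relatives of the members were scarce. Of 5 other lecticans and link proteins only Hapln3, which borders Acan on chromosome 7, passed the filter, at 0.0693 to 0.79 CPM, and Bcan and Hapln2 had no read. Of 7 other hyaluronidases and depolymerases 3 were tested. Tmem2, a cell surface protein that cleaves hyaluronan, stood at 32.6 and 178 CPM for WT, against 178, 192 and 116 for KO (log2 fold change 0.62, SE 0.71), and Cemip, another hyaluronan-degrading protein, at 1.14 to 5.75.

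Of 8 other hyaluronan receptors tested, 4 had a positive and 4 a negative fold change, and 1 stood higher in every KO library. That was Lyve1, the receptor of lymphatic endothelium and of some macrophages, which had no read in WT replicate 1, 8.23 CPM in WT replicate 2 and 12.3, 34.6 and 14.3 in KO. It is named here for that position and not by the rule for named genes. The log2 fold change was 0.72 (SE 0.52) for Stab1, a scavenger receptor, and -0.86 (SE 0.70) for Tlr2, an innate immune receptor that hyaluronan fragments can engage.

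Among the genes that serve Tnfaip6, Itih5, a member of the inter-alpha-inhibitor heavy chain family, stood at 33.4 and 23.6 CPM for WT, against 180, 122 and 49.7 for KO. All KO libraries exceeded the WT pair, in the same order of libraries as for Vcan except between KO replicates 1 and 2. The log2 fold change was 2.04 (SE 0.62), with an unadjusted p of 0.0157 and an adjusted p of 0.81 (edgeR quasi-likelihood test). Itih1, Itih4 and Ambp had no read in any library, and Itih2 had 40 reads in all, none of them in WT.

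Of 12 enzymes that make UDP-sugar precursors, 5 had a positive and 7 a negative fold change (median -0.22), and 6 had all KO libraries between the WT libraries. Hk1, a hexokinase, stood at 175 and 87.8 CPM for WT, against 242, 254 and 392 for KO (log2 fold change 1.17, SE 0.45). Gfpt1, which commits glucose to amino sugars, had a log2 fold change of 0.94 (SE 0.50). Both were higher in every KO library. Ugdh, which makes the UDP-glucuronate used for hyaluronan, overlapped between groups at 81.8 and 234 CPM for WT, against 167, 295 and 199 for KO. It is shown for its role and was not named by the rule.

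Of 24 chondroitin sulphate chain enzymes tested, 17 were positive (median 0.62), and 7 were higher and 2 lower in every KO library. Csgalnact1, which starts chondroitin chains on core proteins, stood at 9.97 and 16 CPM for WT, against 63.8, 22.9 and 32.2 for KO (log2 fold change 1.61, SE 0.61). Dse, which converts chondroitin to dermatan sulphate, had 0.94 (SE 0.44). Csgalnact2, the paralog of Csgalnact1, went the other way, at 77.6 and 70.5 CPM for WT, against 34.7, 44.6 and 55.0 for KO. Its log2 fold change was -0.73 (SE 0.36), and it was named after its values were seen.

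Of 7 proteases that cleave versican, 5 had a positive fold change (median 0.11) and 0 were higher or lower in every KO library. Adamts1 stood at 36.3 and 119 CPM for WT, against 96.5, 204 and 140.1 for KO (log2 fold change 0.92, SE 0.61), and Adamts15 had 0.90 (SE 1.04). For 9 ligands and partners of versican the median was 1.84, and 7 of the 9 stood higher in every KO library. They include Fbn2, a microfibril protein (1.91, SE 0.37), and Tnc, the matrix protein tenascin C (3.75, SE 0.51). The authors' deposited table calls 2 genes of this list higher, 2 of the cartilage list and 2 of the small leucine-rich proteoglycans, against 1.36% of all genes. The fibulins Fbln1 and Fbln2, which bind the versican end domain, had 1.35 (SE 0.45) and 1.98 (SE 0.69).

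The list of cartilage regulators and matrix proteins, which leaves out Acan itself, had 14 tested genes, 3 of them (Col9a2, Col11a2 and Lect1) with no WT read and so positive by construction. Of the other 11, 9 were positive and 2 were higher in every KO library. Col9a2, a cartilage collagen chain, had no read in WT and 13.6, 4.46 and 3.36 CPM in KO. For Sox5, a cartilage transcription factor, it was 2.65 on the log2 scale (SE 0.91). Sox9, which drives Acan in cartilage, overlapped between groups at 20.1 and 11.8 CPM for WT, against 21.8, 19.4 and 30.0 for KO, and Col2a1 had reads in WT replicate 1 and KO replicate 2 only. Of 10 small leucine-rich proteoglycans 9 were positive (median 1.10), and 6 stood higher in every KO library, Fmod (2.50, SE 0.45) and Bgn (1.84, SE 0.37) having the smallest p. The interstitial fibroblast markers, which share Dcn and Lum with this list, also stood higher in every KO library for 6 of 10, and their part in these counts was not tested.

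The level pattern of Hyal2, the member with the highest mean CPM, was most like that of Rps12, Nfkbia, Rab4b, Calm2 and Fancf. The root-mean-square difference of log2 levels centred over the 5 libraries was between 0.082 and 0.106 for these, against a median of 0.895 over 13707 genes. All 5 were highest in WT replicate 2, as Hyal2 was, which follows from choosing them by likeness to it. Fancf, at 0.0409 to 1.59 CPM, lay near the 0.5 added to levels before the log. For Vcan, added after the values had been seen, the nearest were Zfp488 (0.14), Cep135 (0.199), Zfp91 (0.218), Rev3l (0.23) and Dusp8 (0.243), against a median of 1.42. Cep135, at 0.0381 and 0 CPM in WT and 0.819 to 3.16 in KO, also lay near the 0.5 added before the log. Its fitted log2 fold change was 6.86, against 2.41 for Vcan, so its closeness depends on that 0.5. Of the other 9 members the nearest to Vcan was Tnfaip6, at rank 2909.

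Across settings the direction held for Vcan, Acan and Hyal1 and turned for the other 7 members. For Acan, with no WT read, no setting could turn it, and its 13 values are among those counted next. For Vcan and Hyal1, with every KO library above both WT libraries, leaving out 1 library could hardly turn it. Of 156 values of the 10 fold changes under other settings, 122 kept the direction and their side of the threshold, 33 changed sign, and 1, Vcan under DESeq2, passed the threshold. Of the sign changes, 6 came under the marker scalings, which shift all genes downward. Those 6, of Has3, Cd44 and Tnfaip6, were positive relative to the median of all genes. Taking off that median removes the common shift of the scaling, so this cannot show that their direction held. The other 27 came under other settings and touch all 7 members. Relative to that median, 4 values turned sign under the marker scalings, those of Hapln1 and Has2, from -0.04 for both with TMM. They stood at 0.35 and 0.41 scaled to the interstitial markers and at 1.10 and 1.07 scaled to the endothelial markers. Without WT replicate 2, 6 members in place of 3 stood higher in every KO library. There a gene had only WT replicate 1 to exceed, and the share over all genes was not computed. The rise therefore cannot be read as a result about the members.

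**Figure D4:**
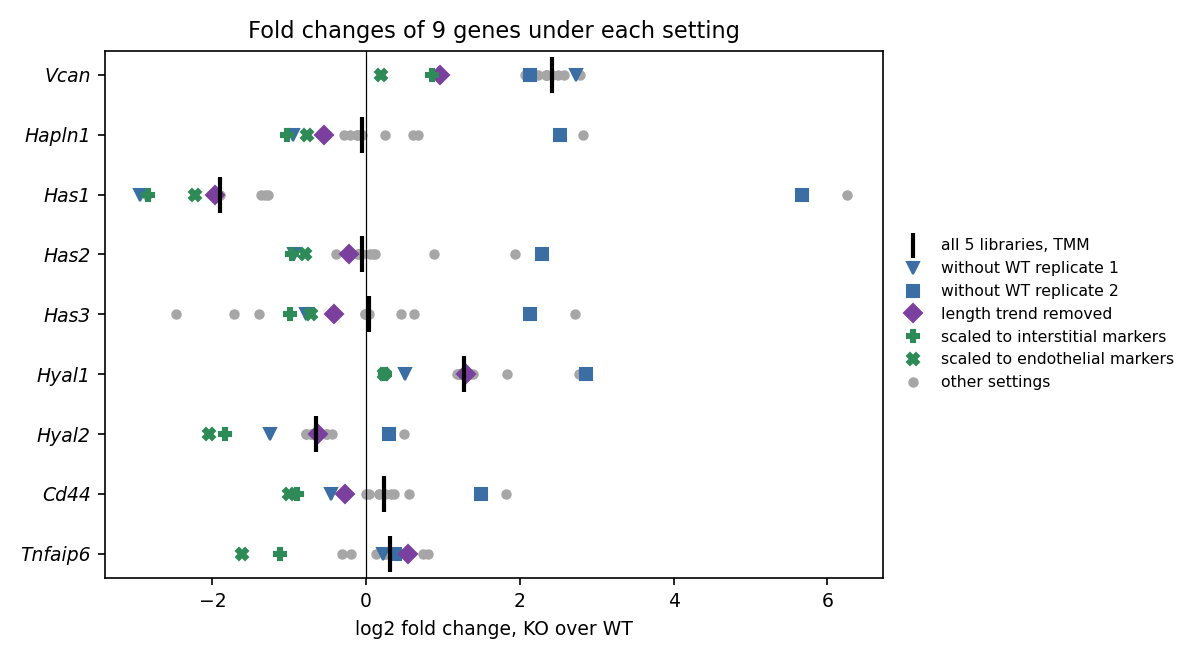
Log2 fold change of KO over WT for 9 genes (Acan, which had no read in WT, is left out) under each setting. Black bars are the fit to all 5 libraries with TMM scaling, and each other symbol is 1 alternative. Values without WT replicate 2 lie at 2.53 for Hapln1 and 2.29 for Has2, against -0.05 for both with all libraries, and Vcan lies between 0.19 and 2.78.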

How the data were processed

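RNA of mitral leaflets was sequenced in 5 libraries made with the SMART-Seq kit, per the labels' protocols. The authors deposited raw counts per gene, whole numbers that differ in total between libraries. Per the submitters' processing notes, the tools included cutadapt 1.11, HTSeq, FastQC 0.11.5 and DESeq2, and the build is written both as mm10 and as GRCm38. The sources used here name no aligner, annotation or counting mode. Beside the counts the table holds, per the file headers, the authors' deposited comparison of KO with WT: a mean signal of normalized counts, a log2 fold change with its error, a test score and p-values, raw and adjusted.

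The test ran in edgeR 4.0.16 under R 4.3.3. The filter filterByExpr left 14244 genes, libraries were scaled by TMM, and groups were compared by a robust quasi-likelihood F test, two-sided, with Benjamini-Hochberg adjustment and a threshold of 0.05. The fit was run on simulated counts with known fold changes, and how many of these it recovered is not given here. The median biological coefficient of variation, the spread among libraries of a group beyond counting error, was 62.8%. limma 3.58.1 and DESeq2 1.42.0 served as alternatives. Levels per kilobase use the longest GENCODE M21 transcript. No 2 libraries were duplicates (Pearson correlation of log2 levels across genes 0.773 to 0.909). Reads were not counted as molecules, so floors of 3 counts cover counting error only.

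The members and gene lists were chosen with earlier results of these data known. Named genes were Ift88, the members, the 2 genes of each list with the smallest p, and the 5 genes nearest in pattern (levels plus 0.5, log2, and a mean of at least 20 reads) to the member with the highest mean. Genes named outside this rule are marked in the text or are Fbln1, Fbln2, Sox9, Col2a1, Pdgfra, Vim and the genes without reads in WT or in any library. Of 12 marker lists, 6 are plotted. Scaling to markers was added after the data were seen.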

Additional observations from a re-analysis of the deposited data

How the results depend on the processing

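No paired analysis was possible because the titles number no pairs: the only number that both groups share is 9, under different title codes, and the shared code IR28N (1 WT and 2 KO libraries) was fitted as a covariate instead. Of all genes, 0 were called with all libraries and under each alternative run except DESeq2 and leaving out WT replicate 1, which gave 376 and 245 (0 to 245 when each library is left out). Vcan passed with DESeq2 (log2 fold change 2.34). Leaving out each library gave 2.11 to 2.78 for Vcan, 8.55 to 9.36 for Acan (not tested without KO replicate 2 or 3), 0.51 to 2.85 for Hyal1, -0.96 to 2.53 for Hapln1, -2.94 to 5.67 for Has1, -0.94 to 2.29 for Has2, -2.48 to 2.13 for Has3, -1.25 to 0.30 for Hyal2, -0.46 to 1.49 for Cd44 and -0.31 to 0.73 for Tnfaip6. The KO minus WT difference of the summed synthases ranged from -28.0 to 15.2 CPM and that of the summed hyaluronidases from -209.8 to 66.9, both positive without WT replicate 2. Members with every KO library above each WT library kept numbered 3 to 6 with a library left out, and 2 when a gene needed 1 CPM in 3 libraries. Leaving out a library loosens that criterion for all genes, and the share over all genes was not computed. The sign also turned for Hapln1 with limma-voom (0.61), in the 3 libraries of title code IR28N (2.82) and with that code as a covariate (0.67). For Has1 it turned in the IR28N libraries (6.26), for Hyal2 likewise (0.50), and for Has2 there (1.94), with limma-voom (0.11) and with the covariate (0.88). Has3 turned with DESeq2 size factors (-0.017), DESeq2 (-0.0163), limma-voom (-1.39), the covariate (-1.72), the length trend removed (-0.42), and scaled to interstitial (-0.99) or endothelial markers (-0.72). Cd44 turned with the length trend removed (-0.27) and scaled to the markers (-0.91 and -1.0), and Tnfaip6 with the covariate (-0.20) and scaled to the markers (-1.13 and -1.61). Where a WT library is left out, 1 is assumed to vary as the KO libraries do. The marker scalings moved the median of all genes to -1.38 and -1.87, and relative to it Has3, Cd44 and Tnfaip6 kept a positive value. Taking off the median removes the common shift of the scaling, so this cannot show that their direction held. Relative to it Hapln1 and Has2 turned positive under both marker scalings. The cause of this and of the other changes was not tested. Acan, Has1 and Has3 had 0 to 3 reads in at least 1 library, where levels under 0.052 to 0.123 CPM (3 counts) were not detectable.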
